A study of Mus musculus with 6 samples.

Results

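The transcripts described here belong to 10 genes of the Nrf2 pathway and of antioxidant defence. They are *Nfe2l2*, *Keap1*, *Nqo1*, *Hmox1*, *Gclc*, *Gclm*, *Txnrd1*, *Srxn1*, *Gpx1* and *Cat*, chosen by name and matched to the deposited Ensembl identifiers through the GENCODE M21 annotation. All 10 were found among the 53801 mouse gene identifiers listed for each clone, and all 10 passed the filter for testing, a mean of at least 0.5 TPM over the 6 clones. TPM is a transcript level scaled by gene length so that each clone sums to 1000000. *Snd1* was disrupted in MIN6, a mouse insulinoma line used as a model of pancreatic β cells, to ask how its loss changes β cell gene expression. MIN6 cells that express Cas9 received lentiviral guide RNAs against *Snd1*, were selected with puromycin, and were expanded from single cells. The 3 control clones had Cas9 targeted to intron 2 of *Snd1*, the 3 *Snd1* KO clones had it targeted to exon 2, and 1 RNA library was made from each clone. No further treatment, such as an oxidant or an Nrf2 activator, is given for any clone. Every clone therefore carries Cas9 and a guide RNA, each library stands for 1 clone picked by protein level, and differences between clones of the same group enter the error of every comparison.

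Nrf2, the product of *Nfe2l2*, is a transcription factor that pairs with small Maf proteins on DNA elements known as antioxidant response elements. In unstressed cells the adaptor Keap1 holds Nrf2 and directs it to degradation, and oxidants or electrophiles release it, so that the activity of Nrf2 is set largely at the protein level. Its targets supply glutathione, reduce thioredoxin and peroxiredoxins, and detoxify quinones and heme. Pancreatic β cells are known for low expression of several enzymes that remove hydrogen peroxide, catalase among them.

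*Snd1* itself was at 113, 119 and 112 TPM in the control clones and at 14.7, 57.1 and 19.9 TPM in *Snd1* KO clones 1, 2 and 3. The groups did not overlap, and the highest residual level was that of *Snd1* KO 2. The log2 fold change of *Snd1* was -2.11 (SE 0.45). Its limma p-value of 0.00258 became 0.511 after adjustment over all genes tested, so *Snd1* itself did not reach an adjusted p-value under 0.05. Depth was similar between clones, with 25865183 to 33055379 reads on genes recovered from the TPM values. Between 9.17% (Control 3) and 16.4% (*Snd1* KO 1) of TPM came from mitochondrial genes. Clones were set against each other by the root mean square difference of log2(TPM + 1) over 11368 genes. Control 1 and Control 2 differed by 0.335, and *Snd1* KO 2 and *Snd1* KO 3 by 0.370. Control 3 differed from Control 1 by 0.584, which was more than its difference from *Snd1* KO 2 (0.542) or *Snd1* KO 3 (0.515), and *Snd1* KO 1 differed from every other clone by 0.594 to 0.649. Control 3 and *Snd1* KO 1 thus stood apart from the other clones of their own groups, so values without each of them are given where they matter. The 10 β cell markers were all detected, summing to 47147 to 80889 TPM in the controls and to 51534 to 88243 TPM after *Snd1* KO. In the α cell list *Ttr* had the highest level in every clone, followed by *Gcg*, the list summing to 14435 to 20312 TPM in the controls and to 3087 to 8922 TPM after *Snd1* KO. Markers of δ, PP, acinar, duct and endothelial cells, fibroblasts and macrophages summed to at most 3.58 TPM per list in any clone. The part of these marker differences in the results was not tested, and in bulk RNA fewer cells of a type and less RNA per cell cannot be told apart.

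To show where antioxidant response elements could lie, the core letters TGACNNNGC were searched on both strands in windows from 250 bases before to 50 bases after the starts of genes in RefSeq (GRCm38.p6). The windows of 3 genes with the core are shown as places where Nrf2 could act, beside that of *Nqo1*, the most variable of the 10 genes, which held none. Of the 10 genes, 8 had windows in the set searched, *Hmox1* and *Gclc* being the others. Of their 10 windows, 4 (40%) held the core, compared with 12.4% of all 32851 windows. Among 125 windows of the other pathway genes, listed below, 17.6% held it. The median number of CpG dinucleotides was 12.5 in windows of the 10 genes, 16 in those of the other pathway genes and 7 over all windows. The core was present at *Nfe2l2*, *Gclm*, *Srxn1* and at 1 of the 3 windows of *Txnrd1*. In *Srxn1* it lay after the start, so its window is not shown. Below, the core is in capitals and the sequences run 5′ to 3′ on the strand of the gene.
*Nfe2l2*, chr2:75704855-75704913, minus strand: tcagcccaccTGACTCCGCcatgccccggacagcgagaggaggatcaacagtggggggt
*Gclm*, chr3:122245383-122245471, plus strand: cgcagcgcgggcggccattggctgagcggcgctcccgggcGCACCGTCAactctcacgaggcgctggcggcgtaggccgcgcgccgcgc
*Txnrd1*, chr10:82859074-82859162, plus strand: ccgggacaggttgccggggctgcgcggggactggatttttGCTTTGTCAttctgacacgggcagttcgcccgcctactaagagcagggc
*Nqo1*, chr8:107403216-107403455, minus strand: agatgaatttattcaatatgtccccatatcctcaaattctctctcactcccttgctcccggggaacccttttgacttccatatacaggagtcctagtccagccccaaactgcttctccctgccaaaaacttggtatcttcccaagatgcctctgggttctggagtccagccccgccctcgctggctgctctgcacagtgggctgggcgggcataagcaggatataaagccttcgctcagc
The core began 240 bases before the start in *Nfe2l2*, where it read forward and lay opposite an exon of the noncoding transcript *E030042O20Rik*. It began 134 bases before the start in *Gclm* and 92 bases before it in *Txnrd1*, in both as the reverse complement. The *Nqo1* window held no such letters and 5 CpG dinucleotides, against 48 in the *Gclm* window and a median of 7 over all windows. Windows of *Keap1*, *Gpx1* and *Cat* held no match either. A match of letters is a description of the window and not evidence of binding. Bases further from the start were not searched, so a window without the core does not mean a gene without it.

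The 10 genes covered a wide range of levels in control clones. Since the deposited TPM values divide by the summed exons of all transcripts of a gene, levels of different genes were compared per exonic base, each base counted once and rescaled to sum to 1000000 per clone. On that scale *Gpx1*, the cytosolic glutathione peroxidase, was highest at 153 ± 23.0 (SD, n = 3 control clones), followed by *Srxn1*, sulfiredoxin, which repairs overoxidised peroxiredoxins, at 132 ± 7.66. The ranges of these genes overlapped. *Gclm*, the modifier subunit of the enzyme that starts glutathione synthesis, was at 92.9 ± 30.6, *Hmox1* at 84.4 ± 39.5, *Txnrd1* at 82.0 ± 13.6 and *Keap1* at 63.6 ± 3.11 per exonic base, with overlap between each neighbouring pair. *Gclc*, the catalytic subunit, followed at 40.7 ± 10.5, *Nfe2l2* at 23.7 ± 2.74 and *Cat*, catalase, at 7.68 ± 2.93, each below the range of the gene before it. *Cat* thus lay at percentile 42.3 of the 17823 genes tested, against percentile 94.3 for *Gpx1*. *Nqo1*, a quinone reductase, was lowest at 0.418 ± 0.124 (percentile 6.76), so that *Nqo1* transcripts were close to the limit of detection in control clones. The order depends on the gene length. On the deposited scale *Srxn1* instead of *Gpx1* came first, and *Keap1*, with a mean of 32.02 TPM, came after *Gclc* (52.0 TPM) and *Nfe2l2* (36.7 TPM).

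**Figure D1:**
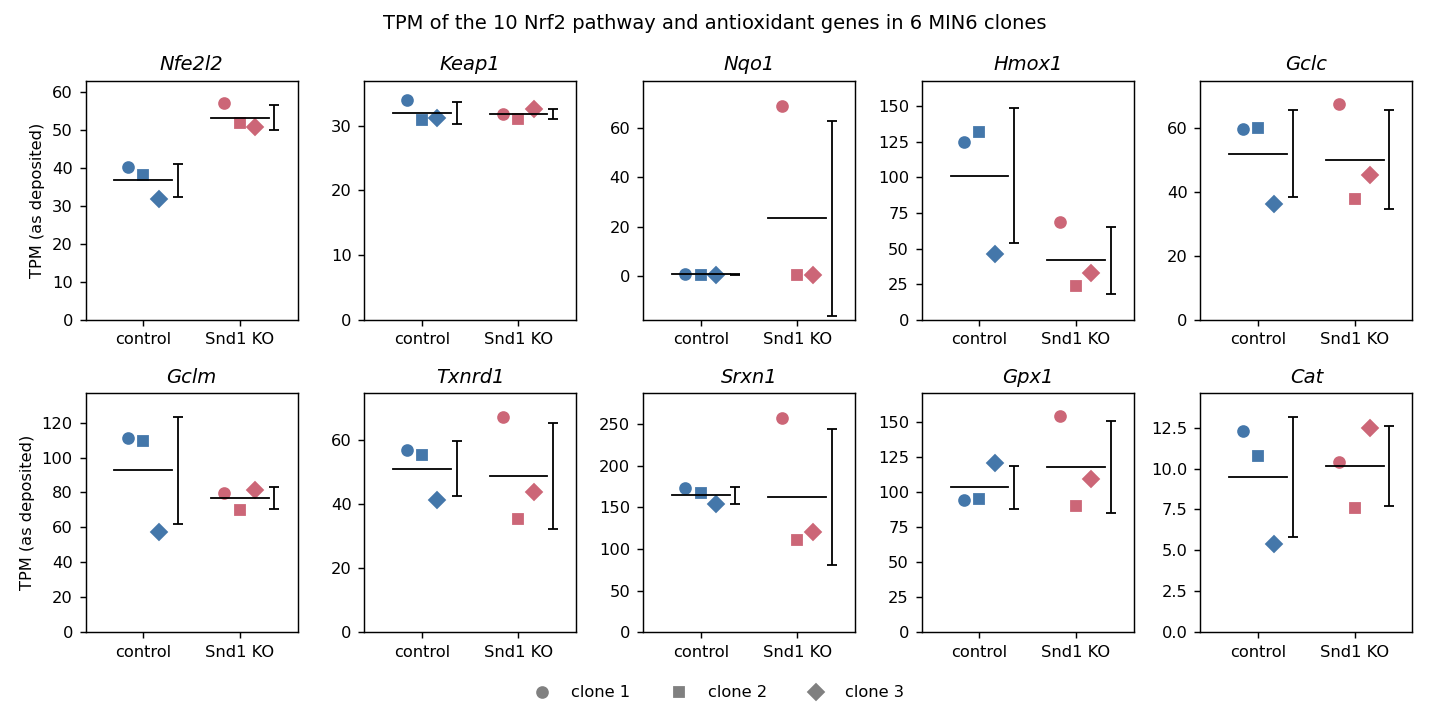
TPM as deposited (y axis, linear scale) for the 10 genes in 3 control clones (blue) and 3 *Snd1* KO clones (red), with clone 1 as a circle, clone 2 as a square and clone 3 as a diamond. Horizontal lines are group means and the bars beside them are the SD over 3 clones. The groups are separate for *Nfe2l2* and overlap for the other genes, and the *Nqo1* mean of *Snd1* KO clones rests on *Snd1* KO 1.

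None of the 10 genes passed the threshold for a change between *Snd1* KO and control clones, an adjusted p-value under 0.05 in limma with at least a 2-fold difference. The background was low, as 1 of 17823 genes (0.00561%) passed it, and *Snd1* itself did not. A gene that did not pass is therefore not shown to be unchanged. At an unadjusted limma p-value under 0.05, *Nfe2l2* was higher and *Hmox1* lower, 2 of the 10 genes, against 7.96% of all genes tested. By voom on recovered reads 0 of the 10 were called, and with clone quality weights 1 was called, *Hmox1*, a setting under which 5.02% of all genes tested were called. The median log2 fold change of the 10 genes was -0.03, with 4 above 0 and 6 below, against 0.04 over all genes tested. Only *Nfe2l2* had groups that did not overlap, 1 of 10 genes higher in *Snd1* KO and 0 lower, where 9.69% and 4.03% of all genes did so. These shares leave the 10 genes as a group near the background.

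*Nfe2l2* (ENSMUSG00000015839, chromosome 2, 75675513 to 75704641, minus strand, GRCm38) encodes Nrf2. Its levels were 40.2, 38.1 and 31.8 TPM in control clones 1, 2 and 3 and 56.9, 51.8 and 50.8 TPM in *Snd1* KO clones 1, 2 and 3. Every *Snd1* KO clone lay above every control clone. Control clones averaged 36.7 ± 4.39 TPM (SD, n = 3) and *Snd1* KO clones 53.2 ± 3.29 TPM (SD, n = 3), which is 145% of control. The log2 fold change was 0.53 with a standard error of 0.12, and the limma p-value of 0.00425 became 0.543 after Benjamini-Hochberg adjustment, so *Nfe2l2* did not pass. The exact two-sided permutation test gave p = 0.1, the smallest that 3 against 3 clones allow. The groups stayed separate with quantile normalization and with median-ratio scaling. In the other alternatives overlap was judged on the deposited values, in some with a clone left out, so it could not arise. The log2 fold change ranged from 0.43 to 0.60 as each clone was left out in turn. With clone quality weights it was 0.40 at an adjusted p-value of 0.025, under 2-fold and hence not called. Counts were ample, with 617 to 1152 reads per clone.

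The genes with a profile most like that of *Nfe2l2* over the 6 clones, out of 11273 genes whose mean reached 5 TPM, were *Ebag9*, *Morc3* and *Tmem161b*. Likeness was measured by the root mean square difference of log2(TPM + 1) after centring, which was 0.027, 0.058 and 0.063. *Ebag9* was at 25.3, 23.7 and 20.5 TPM in the controls against 36.1, 31.8 and 31.3 TPM in *Snd1* KO clones, and like *Nfe2l2* it was highest in *Snd1* KO 1 and lowest in Control 3. Genes on the pathway lists were not candidates in this search.

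*Keap1* (ENSMUSG00000003308, chromosome 9, 21229730 to 21239361, minus strand) encodes the adaptor that targets Nrf2 for degradation. It was at 34.0, 30.9 and 31.1 TPM in the controls against 31.7, 31.1 and 32.6 TPM in *Snd1* KO clones. The values lay within a narrow band and the groups overlapped. Means were 32.02 ± 1.70 and 31.81 ± 0.768 TPM, with a log2 fold change of -0.01 (SE 0.10, adjusted limma p-value 0.991). The SD of *Keap1* over the 6 clones was at percentile 0.494 of all genes tested, which places it among the least variable transcripts. A short annotated antisense gene, *Gm16754*, overlaps its exons and was at 0.984 TPM.

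*Nqo1* (ENSMUSG00000003849, chromosome 8, 107388225 to 107403206, minus strand) encodes the quinone reductase that is a standard reporter of Nrf2 activity. It was at 0.899, 0.592 and 0.520 TPM in control clones and at 69.0, 0.518 and 0.604 TPM in *Snd1* KO clones 1, 2 and 3. *Snd1* KO 1 was far above, and *Snd1* KO 2 and *Snd1* KO 3 were within or near the range of the controls. These values rest on 8, 5 and 4 reads in control clones and on 553, 4 and 5 reads in *Snd1* KO clones. The 95% Poisson interval, which covers counting error only, was 63.4 to 75.0 TPM in *Snd1* KO 1, and its upper bound was at most 1.77 TPM in any other clone. Whether the mates of a read pair were counted separately is not given in the sources used here, and intervals would be too narrow if they were.

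Against the other 5 clones (0.627 ± 0.157 TPM) *Nqo1* was 110-fold higher in *Snd1* KO 1, and it was 76.7-fold above the highest of them. The latter fold ranked 18 among 17823 genes, of which 38 (0.213%) were at least 10-fold above each other clone in *Snd1* KO 1. The SD of *Nqo1* over the clones was at percentile 99.9. Between groups the log2 fold change was 1.74 (SE 1.43, adjusted limma p-value 0.758), and without *Snd1* KO 1 it was -0.09. The high mean of the *Snd1* KO group, 23.4 ± 39.5 TPM, was therefore a property of a single clone.

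Genes beside *Nqo1* were examined in the same clone. All 14 other protein-coding genes that reach within 500 kb of either end of it passed the filter, and in *Snd1* KO 1 they differed from the mean of the other 5 clones by -0.30 to 0.96 on the log2(TPM + 1) scale, with a median of -0.06. *Nqo1* differed by 5.43. The neighbour furthest from 0 was *Tmed6*, named after its value was seen. Other genes singular to *Snd1* KO 1 included the β cell marker *Ucn3*, at 41.6 TPM there and at most 0.680 TPM elsewhere, and the α cell hormone gene *Gcg*, at 1100 TPM there and 55.2 to 314 TPM elsewhere. Of the 10 β cell markers *Snd1* KO 1 had the highest level of 2, *Ucn3* and *Mafa*, the lowest of 2, *Ins1* and *G6pc2*, and lay between the other clones for 6. *Ttr* was at 3796 TPM there, between *Snd1* KO 2 (3032 TPM) and *Snd1* KO 3 (8774 TPM) and below the control clones (14122 to 20138 TPM). The part of these genes in the *Nqo1* value was not tested.

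**Figure D2:**
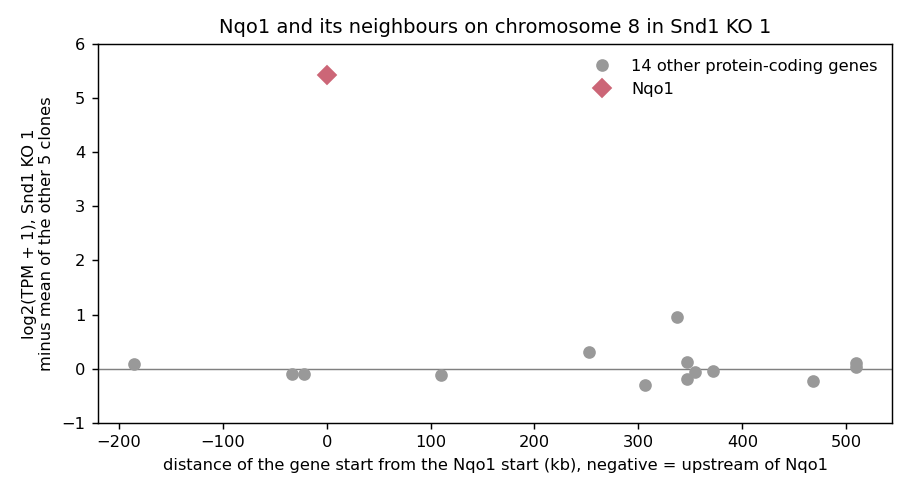
Difference of log2(TPM + 1) between *Snd1* KO 1 and the mean of the other 5 clones (y axis) for *Nqo1* (red diamond) and the 14 other protein-coding genes that reach within 500 kb of either end of it (grey circles), against the distance between gene starts in kb (x axis), which can exceed that window. *Nqo1* is at 5.43 and the neighbours lie between -0.30 and 0.96.

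*Hmox1* (ENSMUSG00000005413, chromosome 8, 75093621 to 75100589, plus strand) encodes the inducible heme oxygenase, which opens the heme ring and releases iron. It was at 125, 132 and 46.5 TPM in the controls against 68.4, 23.7 and 32.9 TPM in *Snd1* KO clones. *Snd1* KO 2 and *Snd1* KO 3 were the lowest, while Control 3 lay below *Snd1* KO 1, so the groups overlapped. Means were 101 ± 47.4 and 41.7 ± 23.6 TPM, or 41.2% of control, and the log2 fold change was -1.26 (SE 0.51). The limma p-value was 0.0458 before and 0.607 after adjustment, and the exact permutation test gave p = 0.2. The log2 fold change was -1.74 without Control 3 and -1.68 without *Snd1* KO 1, and in either case the groups separated, with adjusted p-values of 0.221 and 0.262. Separation is easier with 5 clones, as 17.8% of all genes tested were lower without overlap when Control 3 was left out and 10.9% when *Snd1* KO 1 was. It was -0.93 without *Snd1* KO 2. With clone quality weights, which gave Control 3 and *Snd1* KO 1 weights of 0.279 and 0.286 and *Snd1* KO 3 a weight of 3.91, it was -1.85 at an adjusted p-value of 0.0216, a call that the equal weights did not give.

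*Gclc* (ENSMUSG00000032350, chromosome 9, 77754535 to 77794485, plus strand) and *Gclm* (ENSMUSG00000028124, chromosome 3, 122245557 to 122270732, plus strand) encode the catalytic and modifier subunits of glutamate-cysteine ligase, the rate-limiting enzyme of glutathione synthesis. *Gclc* was at 59.7, 60.0 and 36.4 TPM in the controls against 67.6, 37.8 and 45.2 TPM in *Snd1* KO clones. Its groups overlapped over most of their range, with a log2 fold change of -0.06 (SE 0.28, adjusted limma p-value 0.969). *Gclm* was at 111, 109 and 57.2 TPM in the controls against 79.6, 69.7 and 81.3 TPM in *Snd1* KO clones. Control 1 and Control 2 were highest and Control 3 lowest, and *Snd1* KO clones lay between them, with a log2 fold change of -0.21 (SE 0.26, adjusted limma p-value 0.850). Without Control 3 it was -0.52 and the groups separated. Exons of *Gclm* overlap those of *Gm17494* (0.947 TPM) and of the same-strand pseudogene *Gm6061* (3.28 TPM), so its reads could be split between genes.

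The ratio of *Gclm* to *Gclc* per exonic base, which does not depend on library scaling, was 2.39, 2.33 and 2.01 in control and 1.51, 2.37 and 2.30 in *Snd1* KO clones. *Snd1* KO 1 was lowest and the other 5 clones lay close together. The group means were 2.25 ± 0.204 and 2.06 ± 0.478, and the log2 difference of -0.15 gave an exact permutation p of 0.6. Without *Snd1* KO 1 the difference was 0.06, in the opposite direction. The transcripts of the subunits thus kept a similar proportion in 5 clones although the level of *Gclm* in control clones ranged from 57.2 to 111 TPM.

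*Txnrd1* (ENSMUSG00000020250, chromosome 10, 82833951 to 82897712, plus strand) encodes the cytosolic thioredoxin reductase, which uses NADPH to keep thioredoxin reduced. It was at 56.9, 55.3 and 41.2 TPM in the controls against 67.4, 35.4 and 43.7 TPM in *Snd1* KO clones. *Snd1* KO 1 was highest and *Snd1* KO 2 lowest. The log2 fold change was -0.10 (SE 0.25, adjusted limma p-value 0.935).

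*Srxn1* (ENSMUSG00000032802, chromosome 2, 152105516 to 152111376, plus strand) was at 173, 167 and 153 TPM in the controls against 257, 111 and 121 TPM in *Snd1* KO clones. Control clones lay close together, with *Snd1* KO 1 above and *Snd1* KO 2 and *Snd1* KO 3 below all of them. The means were nearly equal at 165 ± 10.2 and 163 ± 81.7 TPM, while the SD was larger in *Snd1* KO clones, a difference that was not tested. The log2 fold change was -0.12 (SE 0.31, adjusted limma p-value 0.936), and without *Snd1* KO 1 it was -0.51 with groups that did not overlap.

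*Gpx1* (ENSMUSG00000063856, chromosome 9, 108338903 to 108340343, plus strand) was at 94.3, 95.03 and 121 TPM in the controls against 155, 90.2 and 110 TPM in *Snd1* KO clones. Again *Snd1* KO 1 was highest and *Snd1* KO 2 lowest. The log2 fold change was 0.16 (SE 0.21, adjusted limma p-value 0.854), and -0.05 without *Snd1* KO 1. *Cat* (ENSMUSG00000027187, chromosome 2, 103453849 to 103485160, minus strand), which breaks down hydrogen peroxide in peroxisomes, was at 12.3, 10.8 and 5.36 TPM in the controls against 10.4, 7.59 and 12.5 TPM in *Snd1* KO clones. Control 3 was lowest and the groups overlapped, with a log2 fold change of 0.14 (SE 0.32, adjusted limma p-value 0.930). Without Control 3 it was -0.19.

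Across the 10 genes the same clones often held the extreme values. *Snd1* KO 1 was the highest of the 6 clones for 6 of them (60%), namely *Nfe2l2*, *Nqo1*, *Gclc*, *Txnrd1*, *Srxn1* and *Gpx1*, compared with 21.5% of all genes tested and 31 of the 99 other pathway genes tested (31.3%). Control 3 was lowest for 4 of them (40%), *Nfe2l2*, *Gclc*, *Gclm* and *Cat*, compared with 28.9% of all genes and 16.2% of the 99 other pathway genes. *Snd1* KO 2, with the highest residual *Snd1* of its group, was lowest for 5 of them (50%), *Nqo1*, *Hmox1*, *Txnrd1*, *Srxn1* and *Gpx1*, compared with 14.7% of all genes and 23.2% of the other pathway genes. For *Nqo1* that lowest rank rests on 0.518 TPM against 0.520 TPM in Control 3, each from 4 reads. Since the genes of a clone share a library and respond to common regulators, these counts are descriptions.

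**Figure D3:**
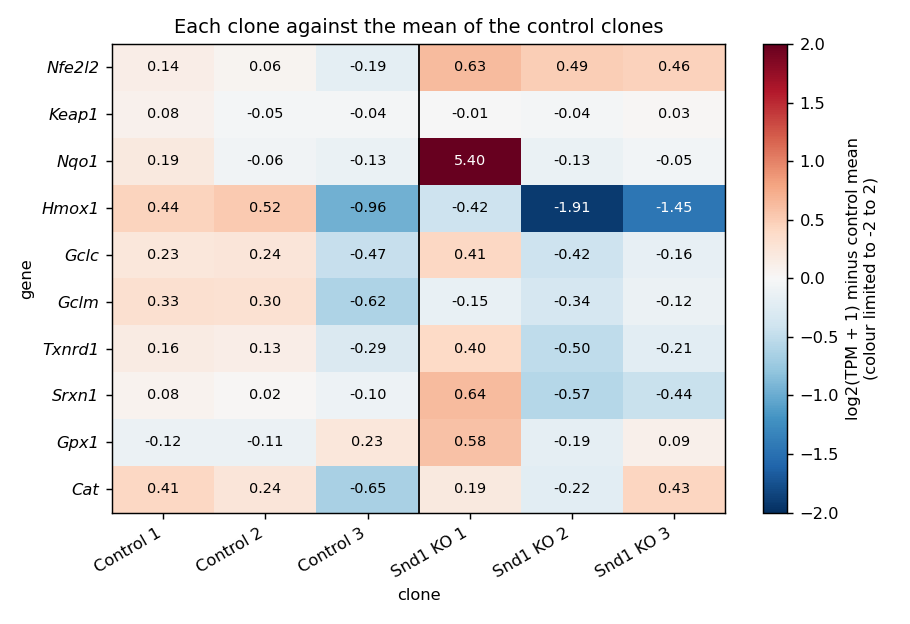
Difference of log2(TPM + 1) in each of the 6 clones (columns) from the mean of the 3 control clones, for the 10 genes (rows). Red is higher and blue lower, with colours limited at -2 and 2 and the value printed in each field. *Nfe2l2* is above 0 in all *Snd1* KO clones, *Nqo1* reaches 5.40 in *Snd1* KO 1 only, and *Hmox1* is lowest in *Snd1* KO 2 at -1.91.

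The other genes of the pathway were taken from 6 lists on Nrf2 control, glutathione, peroxide and superoxide, thioredoxin, heme, iron and quinones, and NADPH supply. Of their 112 genes, 99 passed the filter and 0 were called by limma or by voom, and 3 (3.03%) were called with clone quality weights, below the 5.02% of all genes tested. At an unadjusted limma p-value under 0.05 there were 2 higher and 4 lower (2.02% and 4.04%), where 5.63% and 2.33% of all genes tested were higher and lower. With median-ratio scaling there were 3 higher and 8 lower (4.66% and 3.63% of all genes), and the same counts with quantile normalization (4.03% and 4.11%). Groups did not overlap for 5 higher and 8 lower (5.05% and 8.08%), against 9.69% and 4.03% of all genes tested. The split moved with scaling, to 3 higher and 12 lower with median-ratio scaling (7.81% and 6.64% of all genes) and to 6 higher and 12 lower with quantile normalization (6.64% and 7.55%). The median log2 fold change was -0.01, with 48 genes above 0 and 51 below. With the 10 genes included, the median was -0.01 for Nrf2 control (15 genes tested), -0.10 for glutathione (25), -0.01 for peroxide and superoxide (14), 0.01 for thioredoxin (16), 0.05 for heme, iron and quinones (30) and 0.05 for NADPH supply (9), beside 0.04 for all genes.

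Among the partners and regulators of Nrf2, *Maff* and *Mafg* encode small Maf proteins that bind DNA with it. *Maff* was at 21.4, 15.7 and 13.6 TPM in the controls against 5.60, 8.53 and 11.6 TPM in *Snd1* KO clones. All *Snd1* KO clones were below all control clones, with a mean of 50.6% of control and a log2 fold change of -0.93 (SE 0.28, limma p-value 0.0129, adjusted 0.568). *Mafg* was at 86.1, 84.5 and 76.4 against 71.4, 69.6 and 71.0 TPM, also without overlap, at 85.9% of control (adjusted limma p-value 0.607). *Mafk*, the remaining small Maf gene of the list and named after its values were seen, was at 107% of control with groups that overlapped (log2 fold change 0.08, SE 0.18). *Bach1*, a repressor that competes for the same elements and restrains *Hmox1*, overlapped between groups with a log2 fold change of -0.30 (SE 0.21). It was -0.42 without Control 3, where the groups separated, -0.18 without Control 2 and -0.11 without *Snd1* KO 1. *Sqstm1*, the autophagy receptor that can sequester Keap1 and is itself an Nrf2 target, was at 283, 290 and 267 against 243, 243 and 262 TPM, 89.0% of control. The groups did not overlap, at an adjusted limma p-value of 0.670. The means of *Nfe2l2* and *Mafk* were thus above control and those of *Maff*, *Mafg*, *Bach1* and *Sqstm1* below it, and none of these genes passed the adjusted threshold. Of the 15 genes tested on the Nrf2 control list, 7 had log2 fold changes above 0 and 8 below. Groups did not overlap for 1 higher and 3 lower (6.67% and 20%), against 9.69% and 4.03% of all genes tested.

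In the heme, iron and quinone list, *Akr1b8* and *Osgin1* were below control in every *Snd1* KO clone, and *Slc40a1* and *Cbr3* above. *Akr1b8*, an aldo-keto reductase, was at 8.94, 9.99 and 9.34 against 6.41, 3.74 and 3.74 TPM, with a log2 fold change of -0.92 (SE 0.22, limma p-value 0.00432, adjusted 0.543). *Osgin1*, an oxidative stress-induced gene, was at 2.98, 2.35 and 2.07 against 2.05, 0.608 and 0.829 TPM, so that Control 3 and *Snd1* KO 1 were nearly level. *Slc40a1*, ferroportin, which exports iron, was at 14.9, 18.8 and 17.2 against 20.6, 28.9 and 32.5 TPM, with a log2 fold change of 0.64 (SE 0.19, limma p-value 0.0135, adjusted 0.568). *Cbr3*, a carbonyl reductase, was at 8.95, 5.18 and 11.2 against 17.2, 14.8 and 13.1 TPM, with a log2 fold change of 0.81 (SE 0.27, adjusted limma p-value 0.583). *Hmox2*, the constitutive heme oxygenase, was at 57.5, 56.6 and 54.7 against 64.8, 63.5 and 59.5 TPM, at 111% of control. Its groups did not overlap on the deposited scale but did with median-ratio scaling, and its adjusted limma p-value was 0.692. Genes of this list thus lay on both sides of control.

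None of the genes named from the peroxide and thioredoxin lists was called by limma with equal weights. *Sod1* and *Sod2*, the cytosolic and mitochondrial superoxide dismutases, had log2 fold changes of -0.01 and 0.03, and both signs turned under another scaling, *Sod1* with quantile normalization and *Sod2* with median-ratio scaling. The peroxiredoxin genes *Prdx1* and *Prdx4* were at 0.13 and -0.25, *Gpx4*, which reduces lipid peroxides, at 0.28, and thioredoxin, *Txn1*, at 0.22 on the log2 scale. Their groups overlapped, and adjusted limma p-values were 0.681 or more for all 6 genes. *Nxn*, nucleoredoxin, was at 69.3, 67.4 and 74.6 against 53.1, 58.9 and 58.4 TPM, below control in all clones at 80.7% (limma p-value 0.0193, adjusted 0.581). *Txnip*, the glucose-induced inhibitor of thioredoxin, was at 25.1, 24.8 and 34.5 against 31.5, 16.0 and 10.8 TPM. *Snd1* KO 1 lay within the range of the controls and the other *Snd1* KO clones below it, with a log2 fold change of -0.62 (SE 0.36, adjusted limma p-value 0.673). Without *Snd1* KO 1 it was -1.02 with groups that did not overlap, and without *Snd1* KO 3 it was -0.29. With clone quality weights it was -1.001 at an adjusted p-value of 0.0371 and was called.

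In the glutathione and NADPH lists, *Gsr*, glutathione reductase, had a log2 fold change of -0.12 (SE 0.17) and *G6pdx*, glucose-6-phosphate dehydrogenase, 0.05 (SE 0.16). *Slc7a11*, the cystine transporter subunit, was at 2.75, 2.25 and 2.64 against 0.906, 1.56 and 2.90 TPM, with *Snd1* KO 3 the highest of all clones and *Snd1* KO 1 the lowest. *Slc7a11*, also a known target of Nrf2, was lowest in the clone in which *Nqo1* was highest, and the part of Nrf2 in either value was not tested. Chosen after their values were seen, *Gsta4* and *Gpx2* were highest in *Snd1* KO 1 like *Nqo1*. *Gsta4*, a glutathione S-transferase, was at 19.9 TPM there and 2.10 to 5.07 TPM elsewhere, and *Gpx2* at 19.8 TPM there and 0.421 to 4.59 TPM elsewhere.

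**Figure D4:**
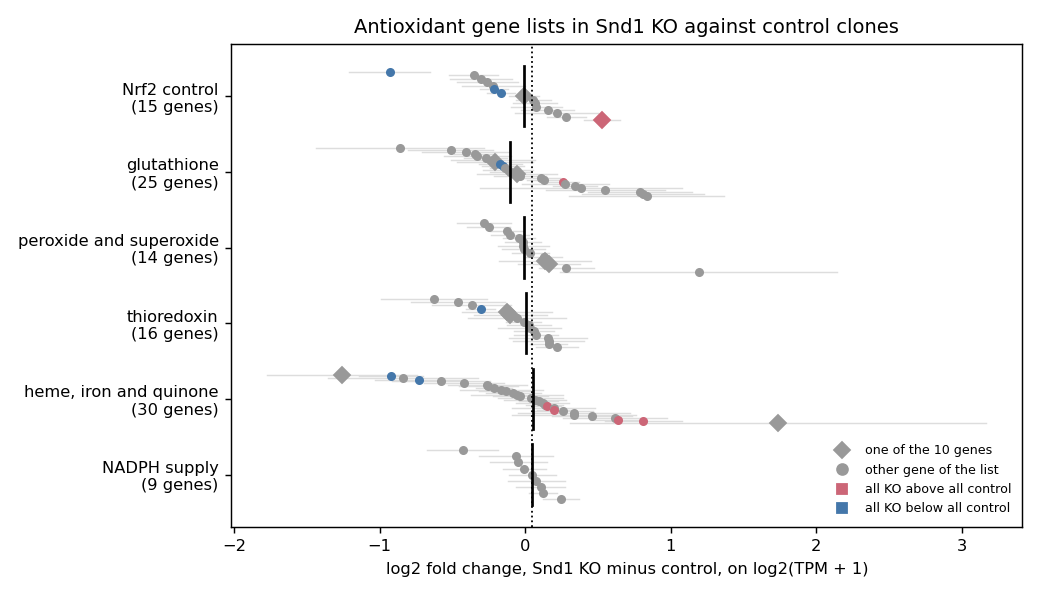
Log2 fold change of *Snd1* KO against control clones on log2(TPM + 1) (x axis) for each tested gene of 6 antioxidant lists (y axis), with grey lines for the standard error. Diamonds mark the 10 genes, circles other genes, red and blue those whose *Snd1* KO clones all lay above or below all control clones, black bars the list medians and the dotted line the median of all genes (0.04). List medians lie between -0.10 and 0.05.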

How the data were processed

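RNA of 3 control and 3 *Snd1* KO MIN6 clones was measured, and groups and clone numbers were taken from the sample labels. The authors deposited TPM per gene for each clone. The submitters' processing notes list FastQC, Trimmomatic, HISAT2, HTSeq, DESeq2 and the build mm10, without versions. The annotation is not given in the sources used here. The lists held 53801 mouse gene identifiers, of which 95 were not matched in GENCODE M21, and 99 spike-in rows with at most 1.02 TPM, which were left out. TPM multiplied by summed exon lengths gave whole reads (within 0.01) for 93.5% of the values above 0. Of 14851 genes above 0 in every clone with a mean of at least 1 TPM, 91.7% gave whole reads in all 6 clones. The 10 genes gave whole reads in every clone. Since no strand setting is given in the sources used here, reads of a gene and of an overlapping antisense gene cannot be told apart. Depth was 25865183 to 33055379 recovered reads, more than the study's methods give per library, and whether mates were counted separately is not given in the sources used here. A gene at a few reads, such as *Nqo1*, carries a large counting error, while genes with many reads are limited by differences between clones.

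These values were taken to log2(TPM + 1) for the 17823 genes whose mean reached 0.5 TPM. On this scale changes of low genes are understated. The groups were contrasted with limma 3.58.1 under R 4.3.3 (lmFit, then eBayes with a trend). The p-values were adjusted by Benjamini-Hochberg over all 17823 genes, with a call at an adjusted p-value under 0.05 and at least 2-fold. For single genes and for the log2 ratio, the difference of group means was put to an exact two-sided permutation test. The fit was also tested on simulated data in which 200 genes differed. Values were read, tested and plotted with Python 3.11.15, numpy 2.4.6, pandas 2.3.3, scipy 1.17.1 and matplotlib 3.10.9.

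The 10 genes, the lists and the tests were chosen with earlier results of these data known. Named were the 10 genes, 14 partners and isozymes fixed by name, up to 8 other list genes in each direction with an unadjusted p-value under 0.05 and groups without overlap, the 3 genes most like *Nfe2l2*, and *Snd1*. Others are marked, apart from cell type markers and overlapping genes. Alternatives were a pseudocount of 0.1, no filter, a minimum mean of 5 TPM, quantile and median-ratio normalization, clone quality weights, voom on recovered reads, a replicate block, leaving out each clone, and for levels and the ratio the deposited gene length.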

Additional observations from a re-analysis of the deposited data

How the results depend on the processing

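Of 418 values for 30 named genes under 14 alternatives, 392 kept their direction and side of the threshold, 3 passed the threshold and 23 turned direction, in 11 genes. The cause was not tested. With clone quality weights 895 genes were called in place of 1, among them 1 of the 10 genes (*Hmox1*, -1.85) and 3 other list genes, *Txnip* (-1.001, adjusted limma p-value 0.0371), *Akr1b8* (-1.11, 0.0179) and *Aox1*, the last named after its value was seen. With no filter, with voom, and with the replicate block 0 genes were called, and leaving out each clone gave 0 to 1. The clone numbers do not pair the samples, as same-numbered clones deviated together with correlations of 0.12, -0.20 and -0.11. The replicate block, at 0 genes called, changed no call of the 10 genes. With median-ratio scaling 3 list genes were higher and 12 lower without overlap in place of 5 and 8. Leaving out each clone gave 5 to 19 higher and 10 to 22 lower of the 99 list genes, where 12.0% to 22.6% and 5.25% to 17.8% of all genes tested did so. For the 10 genes it gave 0 to 2 lower, *Hmox1* and *Gclm* without Control 3 and *Hmox1* and *Srxn1* without *Snd1* KO 1.

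Directions turned with quality weights for *Keap1* (0.0091), *Sod2* (-0.00041) and *Slc7a11* (0.027), with quantile normalization for *Sod1* (0.059), and with median-ratio scaling for *Sod2* (-0.0082). Leaving out Control 1 turned *Keap1* (0.034), *Gclc* (0.058) and *Sod1* (0.020), Control 2 *Gclc* (0.061), and Control 3 *Cat* (-0.19) and *Sod2* (-0.033). Leaving out *Snd1* KO 1 turned *Nqo1* (-0.092), *Gpx1* (-0.046), *Sod2* (-0.040), *G6pdx* (-0.069) and the *Gclm* to *Gclc* ratio (0.060, with -0.26 as the lowest value when other clones were left out). Leaving out *Snd1* KO 2 turned *Keap1* (0.0078), *Gclc* (0.12), *Txnrd1* (0.099), *Srxn1* (0.097) and *Sod1* (0.030), and *Snd1* KO 3 *Srxn1* (0.035), *Cat* (-0.014) and *Sod1* (0.085). The other ends of the ranges as clones were left out were -0.032 for *Keap1*, 2.67 for *Nqo1*, -0.29 for *Gclc*, -0.36 for *Txnrd1*, -0.51 for *Srxn1*, 0.34 for both *Gpx1* and *Cat*, -0.16 for *Sod1*, 0.13 for *Sod2* and 0.20 for *G6pdx*. The turned values of the genes are smaller than their standard errors. With 3 clones a group, exact tests cannot fall below 0.1, and *Nqo1* at 4 to 8 reads in 5 clones has no precise level there.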
